A study of Homo sapiens with 20 samples.

Results

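Growth factor and cytokine receptors let a cell read signals from its surroundings, and 10 of their genes are described here: KIT, IGF1R, INSR, MET, EGFR, ERBB2, ERBB3, FGFR1, RET and IL17RB. They were chosen by name, and each gene was taken as its GENCODE 44 body in GRCh38 with 25 kb added on each side. Of 562813 ChIP-seq regions in 20 lists, 605 fell in these windows, which merged to 187 sites. ChIP-seq recovers the DNA bound by 1 protein, and a region is a stretch where the recovered fragments piled up above the local background. The lists form 10 pairs, each made of a library from cells given AU-15330 at 1 µM for 4 to 6 h and a library from cells of the same line given the vehicle DMSO. AU-15330 is a PROTAC degrader of the mSWI/SNF ATPases, the motors of a chromatin remodeling complex that opens DNA for transcription factors. NCI-H526 and NCI-H1048 are lines of the tuft cell-like subtype of small cell lung cancer, SCLC-P, and MM1.S and NCI-H929 are multiple myeloma lines. In NCI-H526 the proteins were POU2F3, HA-POU2F3 and HA-POU2AF2. In NCI-H1048 they were POU2F3, HA-POU2F3 and an HA-tagged protein that the labels do not name. POU2AF1 and IRF4 were profiled in MM1.S and in NCI-H929. POU2F3 was recovered with an antibody to the protein itself, while the HA lists came from cells with an HA-tagged protein. For HA-POU2F3 and HA-POU2AF2 the titles give a dTAG fusion, which carries a degron tag besides the HA tag. By the study's methods this virally delivered copy was built to resist the guide RNA and was put into Cas9 cells first. The cells' own gene was targeted afterwards, so that both treatments share this design. The unnamed pair has no dTAG label. The study's legends describe an HA-POU2AF3 profile in NCI-H1048, but the labels do not tie this pair to it. Each condition was a single library, so differences between conditions could not be set against replicate spread and no test was made. The whole annotation held 20033 protein-coding genes.

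POU2F3 is a POU-domain factor that binds the octamer sequence and sets the identity of tuft cells, the chemosensory cells of epithelia. POU2AF2 and POU2AF1 are coactivators that join POU factors on octamer DNA, POU2AF1 mainly in B cells and plasma cells, and IRF4 is a factor that plasma cells and myeloma cells depend on. Of the receptors, KIT binds stem cell factor, MET binds hepatocyte growth factor, and IGF1R and INSR bind the insulin-like growth factors and insulin. EGFR, ERBB2 and ERBB3 belong to 1 family, in which ERBB2 has no known ligand and ERBB3 binds neuregulins with little kinase activity of its own. FGFR1 binds fibroblast growth factors, and RET binds the GDNF family through coreceptors. IL17RB is a subunit of the receptor for IL-25, a cytokine that tuft cells release.

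The sequences of 8 regions on which the results below turn are given first, as 101 bases of the plus strand of GRCh38 centred on the summit, the point of highest pileup. All lay in introns. In the first group, of POU2F3 and HA-POU2F3 summits under DMSO, capitals mark the octamer core TTTGCAT on either strand. In the IL17RB sequence, where the core was not within these 101 bases, they mark every 8-base stretch that differed from ATTTGCAT by 1 base on either strand.
KIT, strongest POU2F3 region in NCI-H526, chr4:54694796-54694896: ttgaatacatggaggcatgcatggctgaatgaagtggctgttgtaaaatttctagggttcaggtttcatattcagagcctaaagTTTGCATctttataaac
KIT, HA-POU2F3 in NCI-H526, chr4:54728420-54728520: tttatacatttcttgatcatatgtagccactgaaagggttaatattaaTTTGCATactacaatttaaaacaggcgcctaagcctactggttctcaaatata
INSR, POU2F3 in NCI-H526, chr19:7119155-7119255: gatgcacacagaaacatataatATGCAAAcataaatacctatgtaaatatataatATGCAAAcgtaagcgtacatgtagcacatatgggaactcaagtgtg
MET, POU2F3 in NCI-H1048, chr7:116688926-116689026: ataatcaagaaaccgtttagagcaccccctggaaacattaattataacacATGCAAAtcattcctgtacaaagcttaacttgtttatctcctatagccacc
EGFR, POU2F3 in NCI-H1048, chr7:55107655-55107755: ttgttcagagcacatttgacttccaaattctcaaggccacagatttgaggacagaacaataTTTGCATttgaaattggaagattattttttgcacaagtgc
IL17RB, POU2F3 in NCI-H1048, chr3:53863301-53863401: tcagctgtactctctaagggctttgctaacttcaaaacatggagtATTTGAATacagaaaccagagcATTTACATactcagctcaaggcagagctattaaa

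The INSR window held 2 copies of the core, and 2 or more were found in 3.55% of all NCI-H526 POU2F3 windows of the same length. The core occurred in 34.5% of those windows and in 32.1% of the NCI-H1048 POU2F3 windows, and a stretch within 1 base of the octamer in 52.1% and 48.3%. The other group holds the strongest IRF4 regions at MET and EGFR, with GAAA on either strand, the repeated unit of IRF binding sites, in capitals. At least 1 such unit was present in 70.7% of the MM1.S and 73.1% of the NCI-H929 IRF4 windows. A match is a description of the letters and not evidence of binding.
MET, IRF4 in MM1.S, chr7:116683942-116684042: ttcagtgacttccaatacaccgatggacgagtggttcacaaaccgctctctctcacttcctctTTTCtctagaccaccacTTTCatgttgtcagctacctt
EGFR, IRF4 in NCI-H929, chr7:55074313-55074413: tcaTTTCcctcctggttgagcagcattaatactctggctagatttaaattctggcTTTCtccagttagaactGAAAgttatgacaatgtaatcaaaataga

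Every receptor gene had regions in both tumour types, but their number differed widely between genes. IGF1R carried the most, with 53 sites or 14.5 per 100 kb, and MET had 15.3 per 100 kb. ERBB2 and FGFR1 had the fewest for their length, with 6.49 and 7.59 sites per 100 kb.

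With AU-15330 the genes with a region numbered 5 for POU2F3 in NCI-H526, 6 for HA-POU2F3 in NCI-H526, 2 for HA-POU2F3 in NCI-H1048, 1 for HA-POU2AF2 and 0 for the unnamed HA protein. The shares of all protein-coding genes with a region were 48.5%, 53.1%, 26.9%, 10.6% and 5.44% in the same lists. POU2F3 in NCI-H1048 and POU2AF1 in MM1.S had a region at all 10 genes, against 88.7% and 74.5% of all genes. POU2AF1 in NCI-H929 had one at 8, against 71.8%, and IRF4 at 4 genes in MM1.S and 2 in NCI-H929, against 36.4% and 9.54%. Under DMSO, POU2F3 had a region at all 10 genes in both SCLC-P lines, as 89.6% of all protein-coding genes did in NCI-H526 and 76.4% in NCI-H1048. HA-POU2AF2 had regions at 9 genes, all but EGFR, against 74.2% of all genes. HA-POU2F3 reached 8 genes in each line, against 84.3% of all genes in NCI-H526 and 51.5% in NCI-H1048, and the unnamed HA protein reached 8, against 51.2%. POU2AF1 reached all 10 in both myeloma lines, against 83.8% in MM1.S and 81.2% in NCI-H929. IRF4 reached 9 in MM1.S, all but KIT, and 10 in NCI-H929, against 78.3% and 90.4% of all genes. The receptor windows ran from 69.2 to 366 kb, and the windows of all genes were not matched to them in length.

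**Figure D1:**
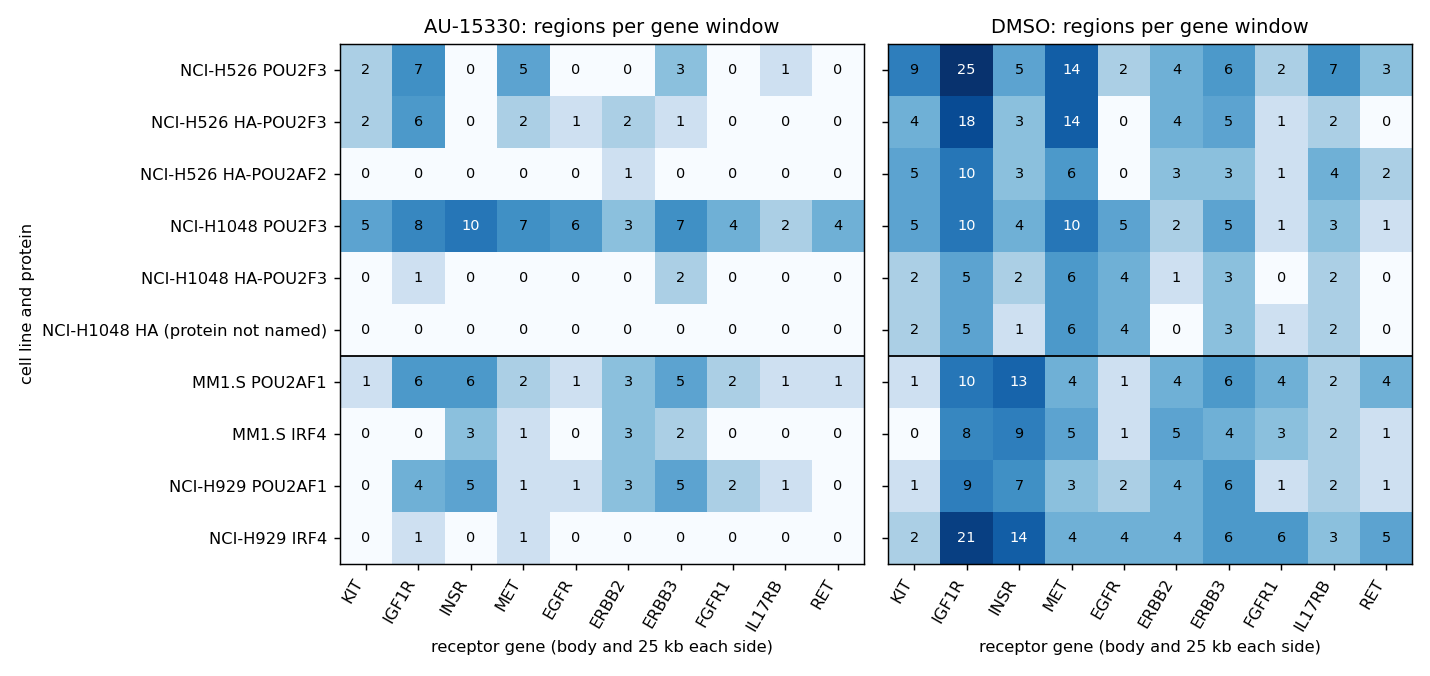
Number of regions in each receptor gene window (columns) for each line and protein (rows), with AU-15330 at the left and DMSO at the right; darker cells hold more regions and the black line separates SCLC-P from myeloma. NCI-H526 POU2F3 had 7 regions at IGF1R with AU-15330 and 25 with DMSO, and only NCI-H1048 POU2F3 had more regions over all genes with AU-15330.

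A DMSO region was counted as retained where a region of the AU-15330 list shared at least 1 base with it. HA-POU2AF2 retained 0 of 37 receptor regions, with an exact 95% upper bound of 9.49%, where its whole list retained 1.26%. The unnamed HA protein retained 0 of 24 (upper bound 14.2%, whole list 1.95%), and IRF4 in NCI-H929 retained 0 of 69 (upper bound 5.21%, whole list 0.888%). HA-POU2F3 retained 9 of 51 in NCI-H526, or 17.6% (8.40 to 30.9%), where the whole list retained 14.6%. It retained 2 of 25 in NCI-H1048 (interval 0.984 to 26.0%), where the whole list retained 7.72%. POU2F3 retained 15 of 77 in NCI-H526, or 19.5% (11.3 to 30.1%), beside 16.7% of the whole list. IRF4 in MM1.S retained 6 of 38, or 15.8% (6.02 to 31.3%), beside 9.76%. POU2AF1 retained 19 of 49 in MM1.S, or 38.8% (25.2 to 53.8%), beside 33.7%, and 16 of 36 in NCI-H929, or 44.4% (27.9 to 61.9%), beside 38.4%. The highest share belonged to POU2F3 in NCI-H1048, with 26 of 46 or 56.5% (41.1 to 71.1%), beside 44.6%. The share over the whole list lay inside the interval of the receptor genes in 10 of 10 pairs. Intervals are exact (Clopper-Pearson) and cover counting error only. The libraries were not equally deep, as the background pileup, the genome-wide mean number of overlapping fragments, shows. In NCI-H526 it was 2.02 with AU-15330 and 4.03 with DMSO for POU2F3, and 1.21 and 3.49 for HA-POU2AF2. For POU2F3 in NCI-H1048 the AU-15330 library was the deeper one, at 3.04 with AU-15330 and 2.27 with DMSO. In the other pairs with summits the values lay closer together, in either direction. When the same number of strongest regions was kept in both lists, POU2F3 in NCI-H526 retained 7 of 15 (46.7%, whole list 56.4%), POU2AF1 in MM1.S 17 of 30 (56.7%, whole list 51.7%), IRF4 in MM1.S 5 of 13 (38.5%, whole list 19.1%) and HA-POU2F3 in NCI-H1048 0 of 5 (whole list 15.0%). HA-POU2AF2, the unnamed HA protein and IRF4 in NCI-H929 then retained 0 of 2, 0 of 4 and 0 of 3 regions, beside 8.89%, 13.6% and 4.08% of their whole lists. The share of IRF4 in MM1.S depended on the settings, with 2 of 38 (5.26%, whole list 4.49%) where at least 50% of the DMSO region had to be covered and 0 of 19 (whole list also 4.49%) at a −log10 q of at least 5 in both lists. With 50% covered, HA-POU2F3 in NCI-H526 retained 4 of 51 (7.84%, whole list 9.23%).

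**Figure D2:**
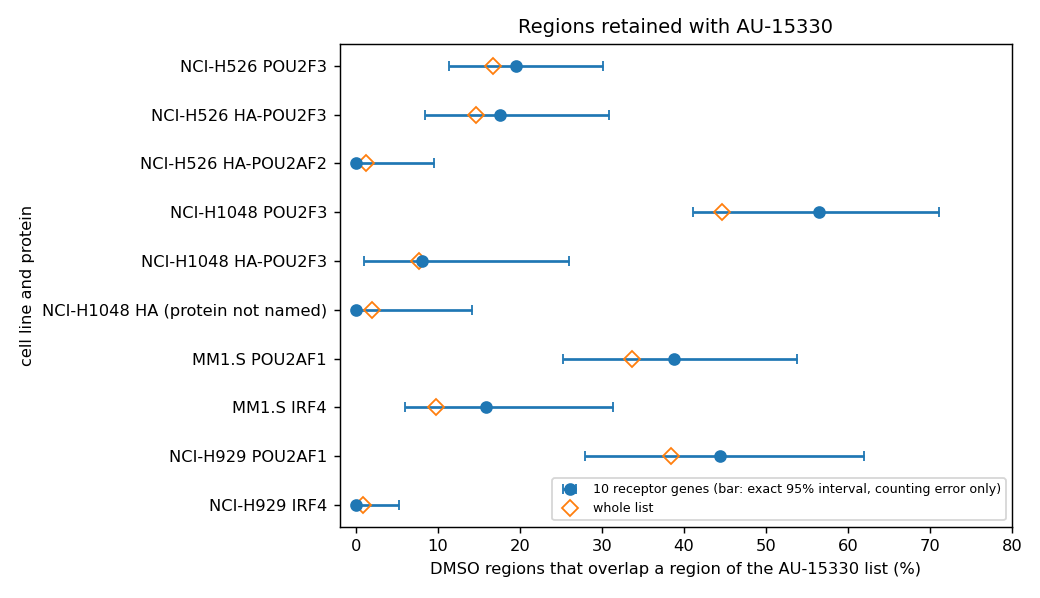
Share of DMSO regions retained with AU-15330 in percent (x axis) for each line and protein (y axis), as blue points with exact 95% intervals for the 10 receptor genes and orange diamonds for the whole list. The share is 0 for HA-POU2AF2, the unnamed HA protein and IRF4 in NCI-H929, and 56.5% for POU2F3 in NCI-H1048, and each diamond lies within its interval.

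Regions called only with AU-15330 were called gained. POU2F3 in NCI-H1048 gained 30 of its 56 AU-15330 regions at the receptor genes, or 53.6%, where 67.3% of the whole AU-15330 list was gained. Its AU-15330 library was deeper than its DMSO library (background pileup 3.04 and 2.27), and the part of depth in these gains was not tested. Of those 30, 11 (36.7%) lay within 1 kb of a protein-coding transcript start, as did 18.6% of all gained regions in that list. The other pairs gained between 0 and 8 regions, with 0 for the unnamed HA protein, which had no AU-15330 region here (72.0% of its whole AU-15330 list was gained). POU2AF1 gained 8 of 28 in MM1.S (whole list 38.9%) and 5 of 22 in NCI-H929 (31.2%). HA-POU2F3 gained 4 of 14 in NCI-H526 (41.9%) and 1 of 3 in NCI-H1048 (73.7%), and POU2F3 in NCI-H526 gained 3 of 18 (15.3%). IRF4 gained 3 of 9 in MM1.S (49.9%) and 2 of 2 in NCI-H929 (70.7%). The only HA-POU2AF2 region with AU-15330 was also gained (whole list 83.8%), at chr17:39749658-39749846 between genes 61.8 kb downstream of the ERBB2 start, with a fold enrichment of 4.77. Fold enrichment is the pileup over the local background, each with 1 added.

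The level of a region is its summit pileup over the genome-wide background pileup of the same library. It could be compared only where a region was called under both conditions, a choice that favours regions that stayed high with AU-15330. POU2F3 in NCI-H526 had a lower level with AU-15330 at 12 of 15 such regions, with a median ratio of 0.797 of AU-15330 over DMSO, beside 0.635 over the whole list. HA-POU2F3 in NCI-H526 was lower at 8 of 9, with a median of 0.665 beside 0.642. IRF4 in MM1.S was lower at 6 of 6, with a median of 0.542 beside 0.733. POU2AF1 was lower at 14 of 19 in MM1.S (median 0.653 beside 0.809) and at 11 of 16 in NCI-H929 (0.875 beside 0.979). POU2F3 in NCI-H1048 was lower at only 6 of 26, with a median of 1.42 beside 1.27. HA-POU2F3 in NCI-H1048 was lower at 1 of 2, beside 80.3% of its whole list. HA-POU2AF2 and IRF4 in NCI-H929 had no retained receptor region, and 64.4% and 81.9% of the retained regions in their whole lists were lower. For the other 6 pairs, the shares of retained regions with a lower level over the whole lists, in the order given above, were 86.5%, 87.2%, 83.7%, 76.2%, 52.8% and 39.5%.

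The regions that NCI-H1048 POU2F3 kept differed by position and by sequence. It retained 12 of 14 regions within 1 kb of a transcript start, and the level was higher with AU-15330 at 10 of them, with a median ratio of 1.48. Elsewhere it retained 14 of 32, with a median of 1.13. Over the whole list the retained shares were 89.8% near starts and 33.3% elsewhere, and the median ratios 2.12 and 0.834. Regions with the octamer core within 100 bases of the summit had a median ratio of 0.831 (6 retained of 14), and those without it 1.56 (20 of 32), beside 0.746 and 1.77 over the whole list. The whole list retained 39.9% with the core and 48.4% without it. Away from starts the whole list had the reverse order, 38.4% and 27.6%, with median ratios of 0.705 and 1.08. The receptor regions away from starts retained 5 of 13 with the core and 9 of 19 without it (medians 1.01 and 1.58). POU2AF1 had a like division by position in what it retained, with 12 of 20 near starts and 7 of 29 elsewhere in MM1.S (whole list 68.0% and 15.9%). In NCI-H929 it retained 12 of 17 and 4 of 19 (74.1% and 16.3%). In NCI-H526 POU2F3 retained 5 of 22 near starts and 10 of 55 elsewhere (whole list 22.5% and 15.7%). HA-POU2F3 in NCI-H526 retained 3 of 17 near starts and 6 of 34 elsewhere, 17.6% in both, where its whole list retained 34.4% and 10.0%.

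**Figure D3:**
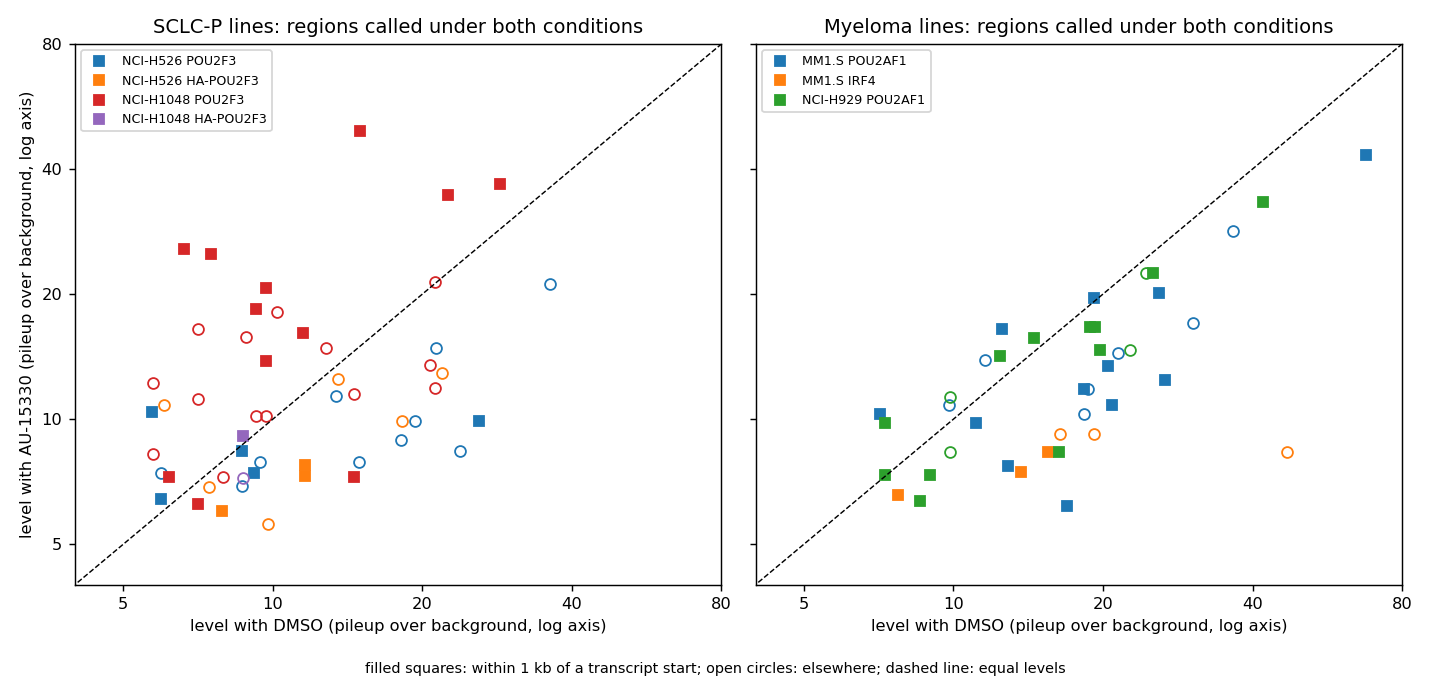
Level with AU-15330 (y axis) against level with DMSO (x axis), both as pileup over background on log axes, for each receptor region called under both conditions, with SCLC-P lines at the left and myeloma lines at the right. Filled squares lie within 1 kb of a transcript start, open circles elsewhere, and the dashed line marks equal levels. Most NCI-H1048 POU2F3 points lie above the line (20 of 26 regions), and all 6 MM1.S IRF4 points lie below it.

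KIT was bound mainly in SCLC-P cells, with 13 sites in SCLC-P lists only, 2 in myeloma lists only and 0 in both. No other protein-coding gene lay in its window. Its strongest POU2F3 region in NCI-H526 was intronic, at chr4:54694514-54695102, 37.6 kb downstream of the gene start, with a fold of 9.85 and a level of 17.6, ranking 4672 of 89902 by fold. HA-POU2AF2 was called there with a fold of 5.51, and both were lost with AU-15330. It is the first KIT sequence above, whose core lies to one side of the summit, and no NCI-H1048 list had a region there. The other KIT sequence stood out in the opposite way. At 71.2 kb, HA-POU2F3 had a level of 10.8 with AU-15330 and 6.05 with DMSO, a ratio of 1.78, and with AU-15330 it ranked 717 of 14413. POU2F3 in NCI-H1048 had a region there only with AU-15330, with a fold of 6.66, while POU2F3 and HA-POU2AF2 in NCI-H526 lost theirs, of folds 4.37 and 4.35. The site at 18.2 kb, without the core, was kept by POU2F3 in both lines, at ratios of 0.791 in NCI-H1048 (levels 11.5 with AU-15330 and 14.6 with DMSO) and 0.797 in NCI-H526 (6.91 and 8.68). At the KIT start itself, the 3 NCI-H526 lists had regions of folds 4.01 to 4.68 under DMSO, of which HA-POU2F3 kept its own at a ratio of 0.628. In myeloma, POU2AF1 in both lines and IRF4 in NCI-H929 had a region within 1 kb of a KIT transcript start, 1.41 to 1.65 kb inside the gene. The folds were 5.94 to 6.94, and all of these regions were lost. POU2F3 in NCI-H1048 had regions at both of these places only with AU-15330, of folds 3.65 and 3.59.

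IGF1R had 24 sites in SCLC-P lists only, 17 in myeloma lists only and 7 in both. The site at 127 kb inside the gene was among the strongest HA-POU2AF2 regions anywhere in the genome, with a fold of 9.59 and rank 597 of 34287, and it was lost with AU-15330. POU2F3 in NCI-H526 had a fold of 11.1 there and kept the region at a level of 21.2 with AU-15330 and 36.2 with DMSO (ratio 0.587). HA-POU2F3 in NCI-H526 (fold 8.37), POU2F3 in NCI-H1048 (4.26) and the unnamed HA protein (5.86) were also called there under DMSO, and these were lost. A site just past the gene end, chr15:98964478-98965144, had folds of also 11.1 for POU2F3 and 9.07 for HA-POU2F3 in NCI-H526. Only POU2F3 in NCI-H526 kept it, at 8.40 with AU-15330 and 23.8 with DMSO, the lowest ratio of its 15 retained regions (0.353). The intronic site at 218 kb was called in 9 of 10 DMSO lists, all but MM1.S IRF4, and POU2F3 moved in opposite directions there in its 2 lines, with levels of 18.1 with AU-15330 and 10.2 with DMSO in NCI-H1048, and of 9.88 and 19.3 in NCI-H526. The retained HA-POU2F3 regions there were lower with AU-15330 in both lines, at 7.21 with AU-15330 and 8.71 with DMSO in NCI-H1048 (0.828) and at 12.9 and 21.9 in NCI-H526 (0.590). In NCI-H1048 a stronger HA-POU2F3 region of the same site (fold 6.40, level 13.5 with DMSO) was lost. The IGF1R promoter was called in 8 DMSO lists. POU2AF1 kept it at 0.777 in MM1.S and 0.892 in NCI-H929, and POU2F3 in NCI-H1048 kept it at 2.14 (20.7 with AU-15330, 9.71 with DMSO). POU2F3 and HA-POU2F3 in NCI-H526 also had regions at this promoter under both conditions. HA-POU2F3 in NCI-H1048 lost it, as did IRF4 in both myeloma lines. In myeloma the strongest IGF1R region was IRF4 in NCI-H929 at chr15:98776797-98777197, with a fold of 9.73 and a level of 21.7, which was lost.

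INSR had 16 sites in myeloma lists only, 4 in SCLC-P lists only and 5 in both. In MM1.S its promoter held the POU2AF1 region of highest fold at any receptor gene. This was chr19:7293976-7295033, with a fold of 12.0 and rank 446 of 36604. It was kept at a level of 43.3 with AU-15330 and 67.8 with DMSO (ratio 0.638). In NCI-H929 the fold was 9.18, below the 9.54 at the MIEN1 promoter in the ERBB2 window. The level there at INSR was 33.3 with AU-15330 and 41.9 with DMSO (0.794). IRF4 had folds of 6.48 in MM1.S and 8.85 in NCI-H929 at the same promoter and lost both. POU2F3 in NCI-H1048 kept it at 36.9 with AU-15330 and 28.7 with DMSO (1.29). The local background there was 3.64 with AU-15330 and 5.22 with DMSO times the genome-wide value for MM1.S POU2AF1, against 1.00 to 1.06 with DMSO in the NCI-H526 lists, and its part in these levels was not tested. An intronic site at 147 kb was the strongest IRF4 region at INSR in both myeloma lines. NCI-H929 had no region there with AU-15330 and a level of 40.1 with DMSO (fold 11.3), and MM1.S had 9.21 with AU-15330 and 19.2 with DMSO (0.481). In NCI-H526 the strongest INSR region was the one with 2 octamer cores printed above, at 175 kb, with folds of 11.3 for POU2F3, 7.31 for HA-POU2F3 and 5.57 for HA-POU2AF2. All 3 were lost with AU-15330. NCI-H1048 had a POU2F3 region of fold 5.72 there with AU-15330 and none with DMSO.

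MET had 15 sites in SCLC-P lists only, 4 in myeloma lists only and 4 in both. In both myeloma lines the strongest MET region was the IRF4 region at 11.8 kb whose sequence is printed above, in an intron. It had a fold of 13.6 and rank 56 of 33327 in MM1.S (chr7:116683829-116684177), and a fold of 12.1 and rank 1550 of 65176 in NCI-H929. With AU-15330 it was still called in MM1.S, at a level of 8.34 against 47.0 with DMSO, the largest drop among the retained receptor regions (ratio 0.177), and it was lost in NCI-H929. POU2AF1 in MM1.S had a fold of 5.90 there and lost it, and no SCLC-P list had a region at this site. In SCLC-P cells an intronic site at 16.8 kb, also printed above, was called in all 6 DMSO lists, at folds of 4.25 to 9.35 for the strongest region of each list. POU2F3 in NCI-H1048 alone kept it, at 11.9 with AU-15330 and 21.2 with DMSO (0.559), although the same protein with an HA tag lost it in the same line (level 13.1 with DMSO). All 6 SCLC-P lists also shared a site 139 kb downstream of the MET start, within 1 kb of the start of the neighbouring CAPZA2, a subunit of actin capping protein. POU2F3 kept it in both lines, at 7.24 with AU-15330 and 14.6 with DMSO in NCI-H1048 (0.497) and at 9.88 and 26.0 in NCI-H526 (0.379). HA-POU2F3 in NCI-H526 kept 2 MET regions, at 51.9 kb (12.5 with AU-15330, 13.5 with DMSO, ratio 0.924) and at 138 kb (9.90 and 18.2, ratio 0.545). The 3 NCI-H526 lists also shared a region upstream of the gene at -23.9 kb, of which POU2F3 had a fold of 9.06, and lost it. The MET promoter was called in 8 DMSO lists and kept in 3 of them, by POU2AF1 at 0.653 in MM1.S and 0.512 in NCI-H929 and by POU2F3 in NCI-H1048 at 7.24 with AU-15330 and 6.18 with DMSO (1.17).

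Under DMSO the SCLC-P lines shared 1 EGFR site and otherwise had separate ones. In NCI-H526 the only DMSO regions in its window were 2 POU2F3 regions past the end of the gene, of folds 5.72 and 4.02, and neither HA protein had any. The region of fold 5.72 was also called in NCI-H1048 with DMSO, for POU2F3 (fold 4.59) and the unnamed HA protein (3.35), and was lost in all 3 lists. In NCI-H1048, POU2F3 had 4 regions in introns between 61.4 and 88.7 kb, all with the octamer core. The strongest, chr7:55107493-55107915, had a fold of 10.3 and rank 2056 of 38036, and its level was 13.5 with AU-15330 and 20.7 with DMSO (0.651). Its neighbour at 73.4 kb hardly moved, at 21.4 with AU-15330 and 21.2 with DMSO (1.01), and the site at 61.4 kb was at 14.8 and 12.8 (1.16). HA-POU2F3 had regions at 61.4 and 88.6 kb, and the unnamed HA protein at all 3 of these sites, and every one was lost. With AU-15330, POU2F3 in NCI-H1048 had a region across the EGFR start (chr7:55018853-55019162, fold 7.36, level 13.5), which no list had with DMSO. In myeloma 1 intronic site at 55.3 kb was called in all 4 DMSO lists, with folds of 11.3 and 8.71 for IRF4 and 6.76 and 6.82 for POU2AF1 in NCI-H929 and MM1.S, and was lost in all 4.

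**Figure D4:**
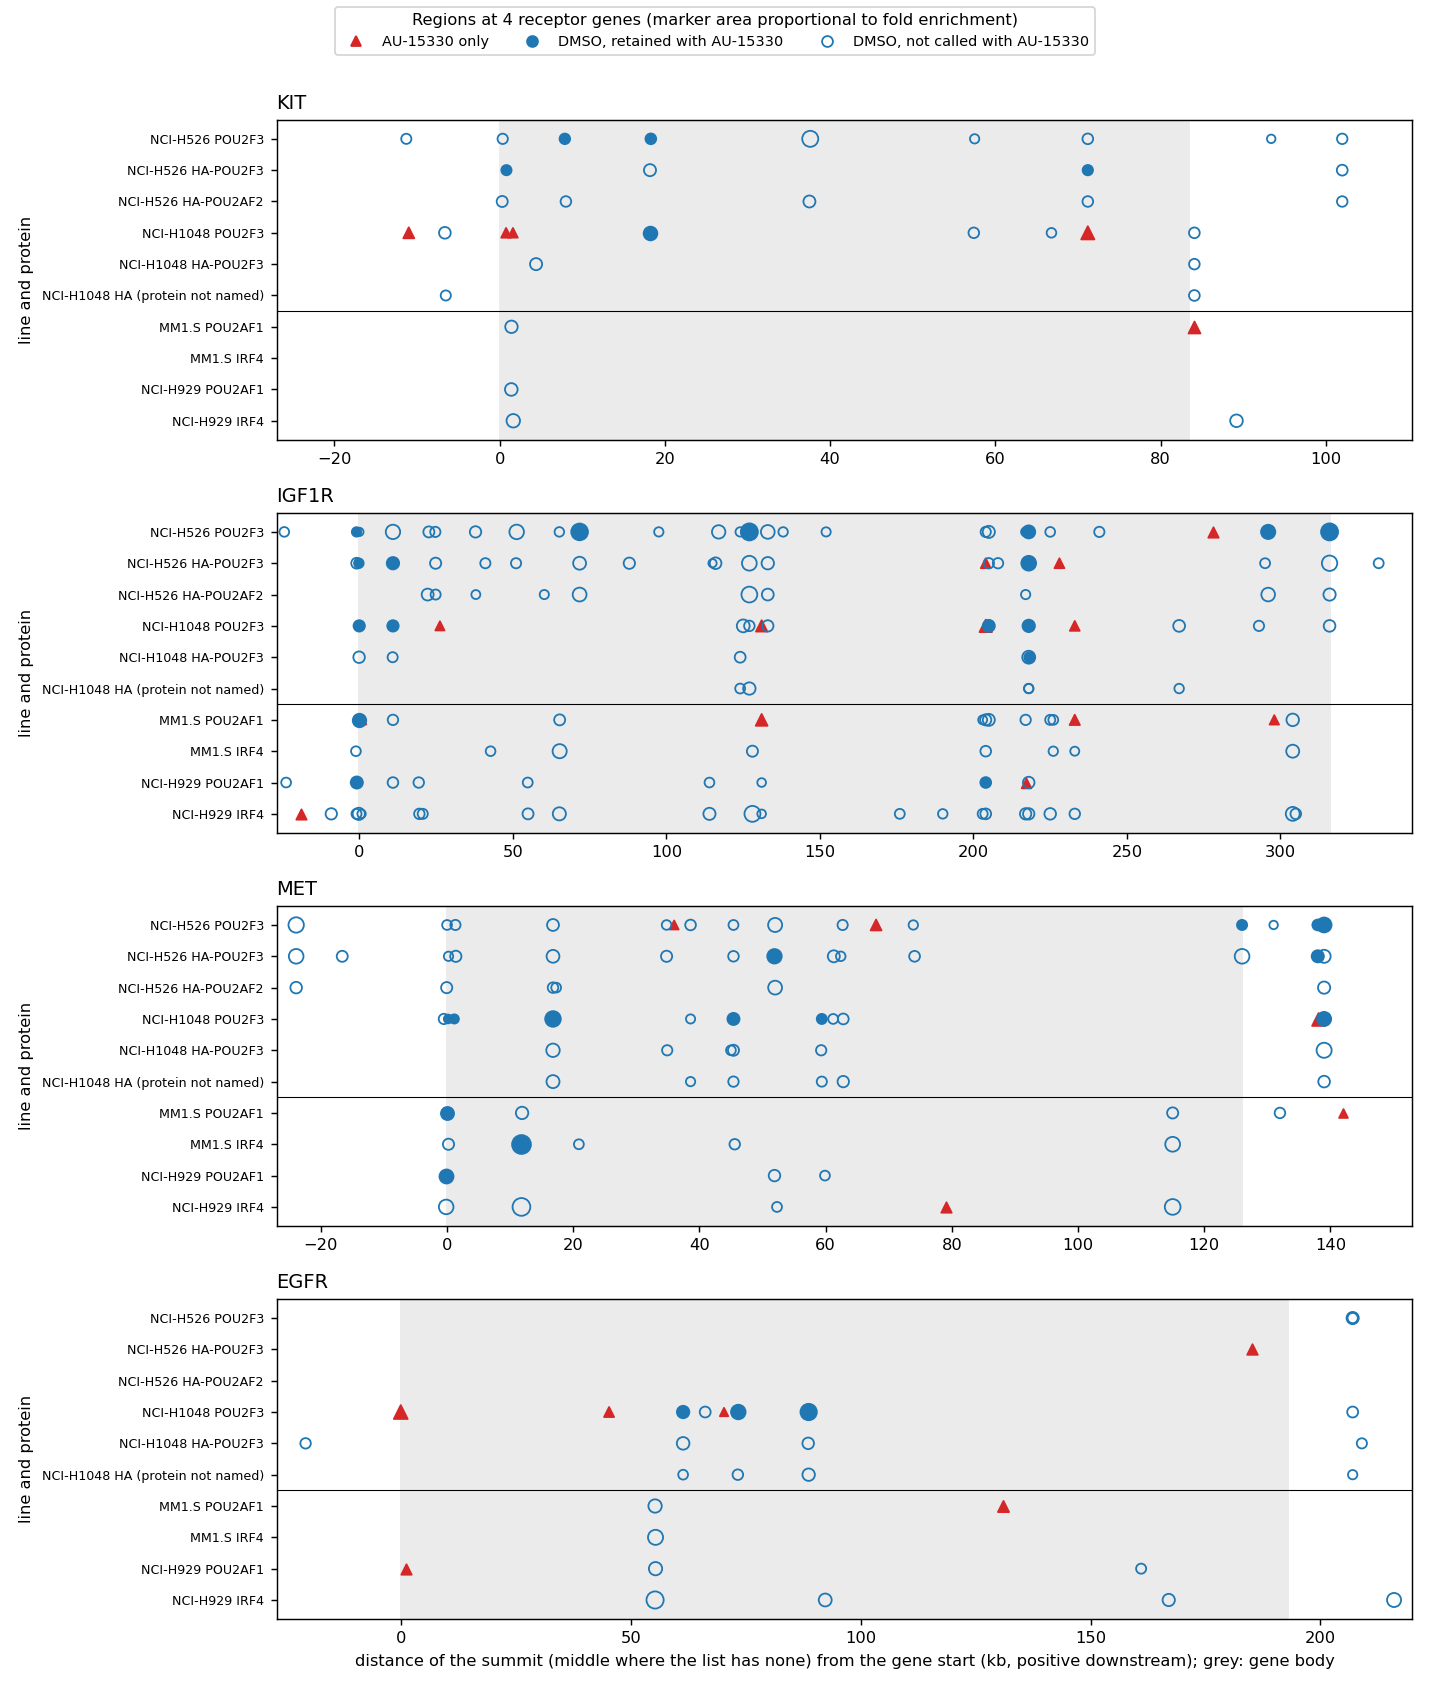
Regions of KIT, IGF1R, MET and EGFR by distance from the gene start in kb (x axis) for each line and protein (y axis), with the gene body in grey and marker area proportional to fold enrichment. Red triangles are regions called only with AU-15330, filled circles are DMSO regions retained with AU-15330, and open circles are DMSO regions lost. NCI-H1048 POU2F3 has 4 DMSO regions between 61.4 and 88.7 kb of EGFR, where NCI-H526 has none, and the large IRF4 circles at 11.8 kb of MET and 55.3 kb of EGFR are in myeloma lines only.

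In the ERBB2 and ERBB3 windows 4 of 6 and 6 of 8 sites lay within 1 kb of a transcript start, mostly of neighbouring genes. Over all receptor sites this held for 36 of 187 (19.3%). These windows, of 92.5 and 76.7 kb, contained 6 and 5 other protein-coding genes, more than any other receptor window. The part of gene density in these counts was not tested. Most of the sites were found in both tumour types: 5 of 6 ERBB2 sites and 6 of 8 ERBB3 sites were called in DMSO lists of both. The ERBB2 start, which lies within 1 kb of a PGAP3 start, was called for POU2F3 in NCI-H1048 with a fold of 11.7 and kept at 34.6 with AU-15330 and 22.5 with DMSO (1.54). MM1.S kept both its regions there, POU2AF1 at 10.3 with AU-15330 and 7.13 with DMSO (1.44) and IRF4 at 6.58 and 7.75 (0.849), while NCI-H929 lost both. The promoter of MIEN1 next to the ERBB2 end was kept by POU2AF1 in both lines (0.648 in MM1.S, 0.865 in NCI-H929) and by IRF4 in MM1.S (0.545). An intergenic site 66.0 to 66.7 kb from the ERBB2 start was called in 8 DMSO lists and kept in 5, including HA-POU2F3 in NCI-H526 at 0.924 and IRF4 in MM1.S at 0.561. At ERBB3, a site at a transcript start of the gene itself was called in 10 of 10 DMSO lists, 2.35 to 3.16 kb from the 5′ end of the annotated gene body. POU2F3 in NCI-H1048 had a ratio of AU-15330 over DMSO of 3.33 there (level 7.50 with DMSO), and HA-POU2F3 in the same line had 9.13 with AU-15330 and 8.71 with DMSO (1.05). The promoter shared by ESYT1 and ZC3H10, 41.4 kb from the ERBB3 start, had the highest level with AU-15330 of all receptor regions, 49.4 against 15.0 with DMSO for POU2F3 in NCI-H1048 (3.29). At the same place POU2AF1 in MM1.S had 12.4 with AU-15330 and 26.7 with DMSO, and IRF4 in MM1.S had 8.34 and 15.5.

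FGFR1, on chromosome 8, had few regions in SCLC-P cells. With AU-15330, POU2F3 in NCI-H1048 had a region at the FGFR1 start with a fold of 10.6 and a level of 22.1, the highest fold of its 30 gained regions. Under DMSO no POU2F3 or HA-POU2F3 list had a region at this start, the unnamed HA protein had one of fold 3.94 that was lost, and the strongest region in NCI-H526 had a fold of 4.31. POU2AF1 and IRF4 occupied this start in both myeloma lines under DMSO, with folds of 4.11 to 6.23, and only POU2AF1 in MM1.S kept it (9.78 with AU-15330, 11.1 with DMSO, ratio 0.878). RET had few DMSO regions, 5 in NCI-H526, 1 in NCI-H1048, 5 in MM1.S and 6 in NCI-H929, with none at its start and a highest fold of 6.39. Its only SCLC-P site shared between lines lay at -16.8 kb, carried the octamer core and was called for HA-POU2AF2 (fold 6.01) as well as for POU2F3 in either line, and it was lost in all 3. The only RET-window region kept was at the promoter of CSGALNACT2, by POU2AF1 in MM1.S (19.6 with AU-15330, 19.2 with DMSO, ratio 1.02).

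IL17RB, the cytokine receptor gene, had 5 sites in SCLC-P lists only, 1 in myeloma lists only and 2 in both. An intronic site at 16.8 kb was called in all 6 SCLC-P DMSO lists and in no myeloma list. POU2F3 had its highest IL17RB fold there in both lines, 10.5 in NCI-H1048 (chr3:53863183-53863520, rank 1892 of 38036) and 8.53 in NCI-H526. Only NCI-H526 POU2F3 kept it, at 7.90 with AU-15330 and 14.9 with DMSO (0.531). No summit at this site had the exact core, and the printed sequence shows 2 stretches 1 base away from the octamer. Loss here by NCI-H1048 POU2F3, at a level of 19.9 with DMSO, stands beside the retention of 3 regions of that level in EGFR and MET (20.7 to 21.2). Those 3 had the core, but regions without it at the ERBB2 start (level 22.5 with DMSO) and the INSR promoter (28.7) were also retained. Over all receptor regions of that list, 6 of 14 with the core and 20 of 32 without it were retained. Any link between the core and retention was not tested. The promoter that IL17RB shares with CHDH was called in 9 DMSO lists with folds of 3.32 to 6.76, and POU2F3 in NCI-H1048 alone kept it, at 13.8 with AU-15330 and 9.71 with DMSO (1.42). At the promoter of the neighbouring ACTR8 the same protein had the highest ratio of all receptor regions, 3.88 (25.7 with AU-15330, 6.62 with DMSO).

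Sites called in both tumour types lay near transcript starts most often and SCLC-P sites held the octamer core most often, at these genes and over the whole series. Of 187 merged sites, 74 were called only in SCLC-P DMSO lists (39.6%), 54 only in myeloma DMSO lists (28.9%), 33 in both (17.6%) and 26 only with AU-15330 (13.9%). All lists together merged to sites of which 46.7%, 28.3%, 8.29% and 16.7% fell in the same classes. Sites in both were near a transcript start in 19 of 33 cases (57.6%, whole series 52.9%), against 8 of 74 in SCLC-P only (10.8%, whole series 3.76%) and 5 of 54 in myeloma only (9.26%, whole series 6.88%). An octamer core within 100 bases of a summit was present at 36 of 74 SCLC-P sites (48.6%, whole series 44.4%), 5 of 33 shared sites (15.2%, whole series 20.8%) and 2 of 54 myeloma sites (3.70%, whole series 6.18%). At least 1 list retained the region at 29 of 33 shared sites (87.9%, whole series 68.5%), 17 of 74 SCLC-P sites (whole series 15.3%) and 4 of 54 myeloma sites (7.41%, whole series 5.66%), although shared sites were called in more lists and so had more chances. None of these shares was tested against the whole series. Cell line and antibody differ together with tumour type here and cannot be told apart.

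**Figure D5:**
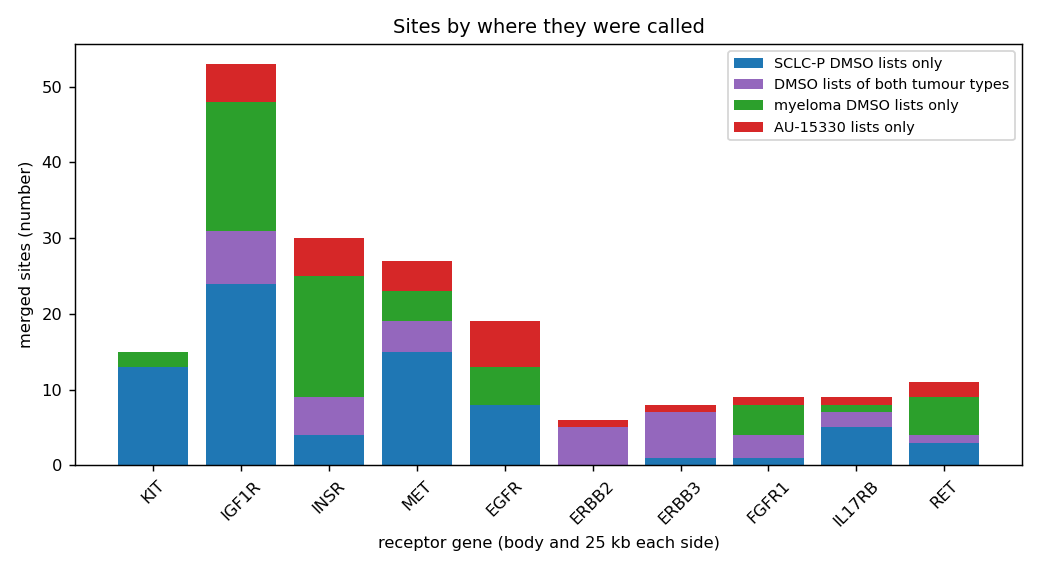
Number of merged sites (y axis) in each receptor gene window (x axis), coloured by where they were called: SCLC-P DMSO lists only, DMSO lists of both tumour types, myeloma DMSO lists only, or AU-15330 lists only. KIT has 13 SCLC-P sites and 0 shared ones, INSR has 16 myeloma sites, and 6 of 8 ERBB3 sites are shared.

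Within a line the proteins overlapped closely at these genes, and each share given here was above that of the whole list, a difference that was not tested. HA-POU2AF2 shared 31 of its 37 regions with POU2F3 in NCI-H526 (83.8%, whole list 75.4%), which were 32 of 77 POU2F3 regions (41.6%, whole list 28.6%). HA-POU2F3 shared 38 of 51 with POU2F3 in NCI-H526 (74.5%, whole list 64.6%) and 16 of 25 in NCI-H1048 (64.0%, whole list 58.5%). The unnamed HA protein shared 20 of 24 with POU2F3 in NCI-H1048 (83.3%, whole list 58.4%). IRF4 shared 30 of 38 with POU2AF1 in MM1.S (78.9%, whole list 55.6%) and 31 of 69 in NCI-H929 (44.9%, whole list 32.6%). Between the SCLC-P lines, 32 of 46 NCI-H1048 POU2F3 regions overlapped one in NCI-H526 (69.6%, whole list 56.6%), and 31 of 77 the other way (40.3%, whole list 23.8%).

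The share of regions with the octamer core was below that of the whole DMSO list for every protein and line with summits except HA-POU2F3 in NCI-H526 and POU2AF1 in NCI-H929. It stood within 100 bases of the summit in 32.5% of POU2F3 regions in NCI-H526 (whole list 46.9%) and 30.4% in NCI-H1048 (44.4%). For HA-POU2AF2 it was 43.2% (46.1%), and for HA-POU2F3 37.3% in NCI-H526 (35.6%) and 28.0% in NCI-H1048 (52.4%). POU2AF1 had it in 1 of 49 regions in MM1.S (2.04%, whole list 7.29%) and 3 of 36 in NCI-H929 (8.33%, whole list 7.99%), and IRF4 in 0 of 38 in MM1.S (4.59%) and 2 of 69 in NCI-H929 (2.90%, whole list 5.18%). A pair of GAAA units 2 bases apart, the repeat bound by IRF factors, on either strand, was found in 1 of 38 IRF4 regions in MM1.S (2.63%, whole list 10.9%) and 5 of 69 in NCI-H929 (7.25%, whole list 11.2%).

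Other genes of the receptor pathways were counted in the same way. Of 25 signal transducers such as RAS and PI3K pathway genes, all 25 had a region under DMSO in all lists except the 2 HA lists of NCI-H1048, and their retained share was above that of the whole list in 9 of 10 pairs. In NCI-H1048 it was 51 of 71 for POU2F3 (71.8%, whole list 44.6%). The 20 feedback inhibitors were above it in 7 pairs, 20 further receptors of the same families in 4 and 20 ligand genes in 3, and the 10 receptor genes themselves in 7. Of 16 tuft cell markers, 13 to 16 had a region in the SCLC-P DMSO lists, against 51.2 to 89.6% of all genes. In each myeloma DMSO list 12 of 12 plasma cell markers did, against 78.3 to 90.4%. Of 8 neuroendocrine markers, 2 to 6 had a region in the SCLC-P lists and 3 to 6 in the myeloma lists. The tuft list includes POU2F3 itself and the plasma list IRF4 and POU2AF1, and most genes had a region, so these counts cannot check the identity of the lines. The lists did not separate the tumour types sharply, since 10 to 16 tuft cell markers had a region in the myeloma lists and 6 to 12 plasma cell markers in the SCLC-P lists. POU2F3 retained 15 of 77 receptor regions against 49 of 119 tuft cell marker regions (41.2%) in NCI-H526, and 26 of 46 against 34 of 43 (79.1%) in NCI-H1048, a difference that was not tested.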

How the data were processed

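ChIP-seq was measured in 20 libraries, 1 per condition. By the study's methods, paired-end reads were trimmed with Trimmomatic (version 0.39 in the submitters' notes), aligned with BWA, filtered with SAMtools and Picard, and peaks were called with MACS2 at q 0.05 in each library, after which blacklisted regions were removed. The stated call names no control library. The authors deposited 1 list per library in GRCh38, with a display score (not used), a ratio, which is the fold enrichment over local background, and the −log10 of p and q. Per the labels, cells received 1 µM AU-15330 or DMSO.

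Only the autosomes and sex chromosomes were used, and all 562813 regions fitted within the reference. Because the deposited fold ratio and −log10 p follow from pileup and background, the whole-number pileup was recovered (tolerance 0.002) for 100% of regions in 18 lists, as in a test on simulated data. The unnamed HA pair, with no summits, allowed this for only 2.60% and 6.03%, so its levels are not given. Background pileup ranged from 1.21 to 4.03, which sets the depth. MACS2 fold enrichment depends on that depth. No p-values were computed. Named regions were drawn mainly from those within 1 kb of a start of the gene and the DMSO region of highest fold per gene and pair. Others came from those retained by HA proteins or IRF4, the gained regions of highest fold, and sites in both tumour types. Not every region of these kinds is named. The members and lists were chosen with earlier results of these data known. Python 3.11.15, numpy 2.4.6, pandas 2.3.3, scipy 1.17.1 and pysam 0.24.0 were used.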

Additional observations from a re-analysis of the deposited data

Results flagged for a closer look

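In 5 cases at 4 sites a protein's level moved in opposite directions with AU-15330 in 2 lines of the same tumour type. Each line had 1 library per condition, so these differences were not tested. The median ratios over the whole lists also differed between lines. They were 1.27 in NCI-H1048 and 0.635 in NCI-H526 for POU2F3, and 0.979 in NCI-H929 and 0.809 in MM1.S for POU2AF1. Of the ratios below, 0.968 and 1.08 lie close to equal levels. POU2F3 at the intronic IGF1R site at 218 kb had a ratio of AU-15330 over DMSO of 1.78 in NCI-H1048 and 0.511 in NCI-H526. The retained HA-POU2F3 regions there were lower in both lines (0.828 and 0.590), and NCI-H1048 lost a stronger HA-POU2F3 region of the same site. At the ERBB3 transcript start described above, POU2F3 had ratios of 3.33 in NCI-H1048 and 0.968 in NCI-H526. POU2AF1 had a ratio of 1.35 in NCI-H929 and 0.597 in MM1.S at that ERBB3 start, 1.14 and 0.365 at the PA2G4 promoter, and 1.08 and 0.516 at the RPL41 promoter. These were 2 of 5 comparable region pairs for POU2F3 and 3 of 11 for POU2AF1, and all of the POU2AF1 pairs lay in the ERBB3 window.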

How the results depend on the processing

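Of 59 alternative values of the retained share, 52 stayed within the interval of the reported share and 7 did not. With the same number of strongest regions in both lists, the share became 46.7% for POU2F3 in NCI-H526, 0% for HA-POU2F3 in NCI-H1048, 56.7% for POU2AF1 and 38.5% for IRF4 in MM1.S. With at least 50% of the DMSO region covered, it was 7.84% for HA-POU2F3 in NCI-H526 and 5.26% for IRF4 in MM1.S. At −log10 q of at least 5 in both lists, it was 0% for IRF4 in MM1.S. The counts of receptor genes with a region moved by over 1.5 times in 9 of 60 alternatives. At −log10 q of at least 5 they became 3 for HA-POU2F3 and 0 for HA-POU2AF2 in NCI-H526, 1 for HA-POU2F3 in NCI-H1048, 0 for IRF4 in MM1.S, and 5 for POU2AF1 and 0 for IRF4 in NCI-H929, all with AU-15330, and 5 for the unnamed HA protein with DMSO. With 5 kb each side of the gene they became 0 for HA-POU2AF2 in NCI-H526 and 1 for IRF4 in NCI-H929, with AU-15330. The cause was not tested. Sites called in both tumour types numbered 22 at −log10 q of at least 5 and 32 when merged by summits, against 33. The summit alternative could not be run for the unnamed HA pair. No paired analysis was possible because each group holds 1 library.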
